A study of Mus musculus with 8 samples.

Results

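The genes described here encode the machinery by which a cell holds on to its surrounding matrix: the alpha and beta subunits of integrins, the matrix proteins fibronectin and vitronectin, the hyaluronan receptor Cd44, and the proteins that tie integrins to actin at focal adhesions. They were taken by gene symbol from a fixed list of 38 mouse genes, and all 38 were present among the 35275 genes of the count table. The levels compared come from a mouse epicardial cell line, that is, cells of the sheet that covers the heart, grown in medium with fetal bovine serum. Cells were transduced with a lentivirus that was either an empty vector (EV, 4 libraries) or carried out a CRISPR/Cas9 knockout of Hdac3 (KO, 4 libraries), a histone deacetylase that works within nuclear receptor corepressor complexes. The labels do not say whether the KO cells are 1 clone or a pool, which guide was used, or whether the replicates are separate cultures, so the p-values below measure only the spread between these libraries. The title of KO replicate 1 names the knockout while another of its labels names the empty vector. It was grouped by its title.

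Integrins are heterodimers of 1 alpha and 1 beta subunit that span the membrane, bind matrix proteins outside the cell and, through talin and kindlin on the short tail of the beta subunit, link to actin inside it. The alpha subunit largely sets which ligand is bound: collagens, laminins, or proteins such as fibronectin and vitronectin that carry the RGD motif. Focal adhesions are the sites where clustered integrins gather adaptors such as paxillin, vinculin and tensin, and kinases of the FAK and Src families. In the embryo, the subunit encoded by Itga4 is known for holding the epicardium to the heart muscle.

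Library totals ran from 18063745 to 24564892 counts, and 3 counts corresponded to 0.125 to 0.164 CPM (read counts scaled to a common library size with TMM factors). EV and KO libraries lay apart along the leading principal component (48.8% of the variance). EV replicates 1 to 4 held Hdac3 itself at 60.3, 61.4, 64.0 and 61.7 CPM and the KO replicates, in the same order, held it at 63.2, 56.9, 63.9 and 62.6 CPM, so the transcript level does not tell the groups apart. A Cas9 edit need not lower the transcript, and the labels of the groups were therefore not checked by it. Epicardial markers were present in every library, with a summed level of 3877 to 4133 CPM in EV and 3939 to 4091 CPM in KO over 10 genes, although Aldh1a2, the retinoic acid enzyme of the epicardium, was below the filter on low counts. The sum held moves in both directions: of the 9 tested, 4 rose (Krt8 by 1.66, Krt19 by 1.01, Krt18 by 0.54 and Msln by 0.44 on the log2 scale) and 3 fell (Tcf21 by 0.74, Wt1 by 0.37 and Upk3b by 0.34). At an adjusted p under 0.05 in edgeR these were 77.78% of the 9, against 26.0% of all genes tested. Markers of other cell types were low in sum: over 28 liver genes 17.5 to 21.8 CPM in EV and 24.3 to 47.1 CPM in KO, with 25 of the 28 higher on average in KO and KO replicates 2 and 3 highest. Of the 12 liver genes tested, Hp fell, from 6.74 CPM in EV to 4.40 CPM in KO. Alb, Apoa2, Apob, Cyp2e1, Cyp3a11 and Ces1g rose, and with Hp these were 58.33% of the 12. The sum of the 8 endothelial markers was lower in KO, at 26.8 to 29.9 CPM in EV and 19.7 to 21.9 CPM in KO. Most of it came from Kdr, and Pecam1 and Cdh5 were near 0. Of the 3 tested, Kdr (-0.58) and Robo4 (-1.44) fell and Tek (0.42) rose on the log2 scale. On average 4 of the 8 were higher in KO. The 8 cardiomyocyte markers summed to 2.62 to 5.79 CPM in EV and 3.41 to 6.96 CPM in KO. The part of such cells in the results was not tested. For the listed adhesion genes, calls that were lost or gained without KO replicate 1, or without KO replicates 2 and 3, are named with the genes. For the wider lists only some such changes are given, mostly as counts. In bulk RNA, fewer cells of a type and less RNA per cell cannot be told apart.

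Of the 38 genes, 30 passed the filter on low counts and were tested, and 14 of the 30 (46.67%) differed between KO and EV at an adjusted p under 0.05 in edgeR's quasi-likelihood test with Benjamini-Hochberg adjustment over all 12801 genes tested. Over all genes tested the share was 26.0%. Of these, 11 were higher in KO: Itga3, Itga6, Itgb3, Fn1, Cd44, Vcl, Tln1, Tns3, Src, Actn1 and Flna. The 3 lower ones were Itga1, Itga11 and Fermt2. The share higher was 36.67% against 12.6% of all genes tested, and the share lower was 10% against 13.4%. In 15 of the 30 genes (50%) the 4 KO libraries lay entirely above or below the 4 EV libraries, against 26.5% of all genes tested. These genes were more abundant than most, with a median mean level of 204.3 CPM against 26.84 CPM over all genes tested, and the share that passes a test also depends on abundance. The differences themselves were small. The median log2 fold change of the 30 was 0.10 against 0.01 over all genes tested, 9 of the 14 changed genes differed by less than 1.25-fold, and only Itga11 differed by at least 2-fold, as did 289 of all genes tested.

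**Figure D1:**
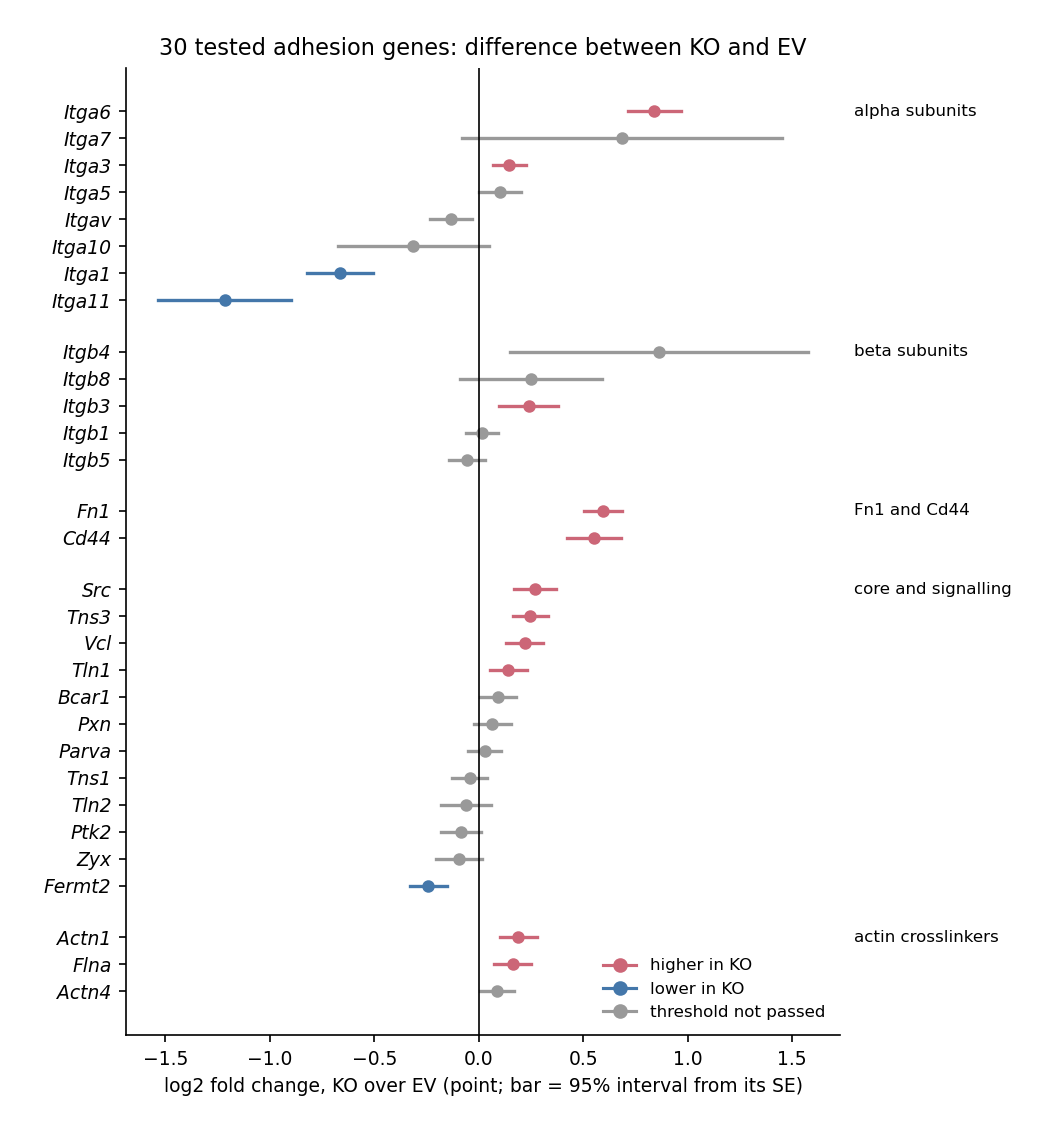
Log2 fold change (KO minus EV) of each of the 30 tested integrin, ligand and focal adhesion genes on the horizontal axis, grouped by role; points are edgeR estimates and bars their 95% intervals from a normal quantile. The bars of Itga5, Itgav, Itgb4, Bcar1 and Actn4 are clear of 0 although these genes did not pass. Itga11 and Itga1 lie farthest to the left. Itga6, Fn1 and Cd44 stand to the right with short bars, and most focal adhesion proteins lie close to 0. Itgb4, which lies farthest to the right, and Itga7 have long bars and did not pass.

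Fibronectin was the most abundant of these transcripts and rose. Fn1 (ENSMUSG00000026193; mm10 chr1:71585520-71653200, minus strand) encodes the large RGD-bearing matrix glycoprotein that cells assemble into fibrils. The EV libraries held it at 5614, 5307, 5860 and 6095 CPM, in the order of replicates 1 to 4 as in all such series below, and the KO libraries held it at 8633, 8470, 8217 and 9174 CPM. Every KO library was above every EV library, and Fn1 ranked 5 by count in each EV library and 4 in each KO library. The log2 change was 0.59 (SE 0.0465; edgeR adjusted p = 1.68e-08), a 1.51-fold rise in mean level. Cd44 (ENSMUSG00000005087; mm10 chr2:102811141-102901665, minus strand), the cell-surface receptor for hyaluronan, was at 61.7, 54.5, 60.3 and 56.5 CPM in EV and at 75.9, 83.7, 84.1 and 96.6 CPM in KO. KO replicate 4 was highest, and the lowest KO library was still above the highest EV library. Its log2 change was 0.55 (SE 0.066; edgeR adjusted p = 3.93e-06). Vtn, vitronectin, an RGD protein that circulates in plasma, had 4, 2, 2 and 1 counts in EV and 3, 7, 5 and 1 counts in KO, too few to be tested. Little Vtn transcript was detectable in either group at this depth. Its highest counts were in KO replicates 2 and 3, where the liver markers were also highest, and their part in it was not tested. Without those libraries the log2 change of Fn1 was 0.64. The liver markers of KO replicates 1 and 4, at 32.2 and 24.3 CPM in sum, were still above the EV maximum of 21.8 CPM. Their part in the rise of Fn1 was not tested.

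Integrin alpha subunits moved in both directions: of 12 listed, 8 were tested, 2 rose, 2 fell and 4 did not pass. The share called was 50% of the 8, against 26.0% of all genes tested. Itga6 (ENSMUSG00000027111; mm10 chr2:71745616-71858416, plus strand) encodes a laminin-binding subunit and was at 30.9, 29.0, 31.0 and 31.9 CPM in EV and at 53.9, 59.0, 49.5 and 57.5 CPM in KO. The groups were far apart relative to their spread, with a log2 change of 0.84 (SE 0.0643; edgeR adjusted p = 1.18e-08). Itga3, which also binds laminins and was the most abundant alpha subunit per unit length, was at 455.0, 448.9, 469.7 and 452.6 CPM in EV and at 499.6, 508.4, 505.5 and 506.2 CPM in KO. The 4 KO libraries sat above all EV libraries but only slightly so, with a log2 change of 0.15 (SE 0.0401; edgeR adjusted p = 0.0114). This call was lost in 4 of 20 alternatives: without KO replicates 2 and 3, with library totals and in both filtered analyses of FPKM (adjusted p from 0.0624 to 0.0807).

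Both subunits that fell are collagen-binding. Itga11 (ENSMUSG00000032243; mm10 chr9:62677826-62783982, plus strand), the alpha subunit of the fibrillar collagen receptor of mesenchymal cells, was at 6.19, 5.20, 6.99 and 6.17 CPM in EV and at 2.81, 1.86, 2.72 and 3.12 CPM in KO. The lowest EV library was well above the highest KO library, and the log2 change was -1.22 (SE 0.162; edgeR adjusted p = 1.47e-05). On the scale of log2(FPKM + 1), which shrinks the change of low genes, it was -0.57. Itga1 (ENSMUSG00000042284; mm10 chr13:114958079-115101964, minus strand), a receptor subunit for collagens of basement membranes among others, was at 42.5, 41.9, 42.5 and 55.7 CPM in EV and at 28.3, 29.4, 28.4 and 29.1 CPM in KO. EV replicate 4 stood above the other EV libraries and the groups did not overlap. The log2 change was -0.66 (SE 0.0811; edgeR adjusted p = 4.98e-06), and -0.55 without EV replicate 4. Pelo lies within Itga1 on the same strand and also fell, with a log2 fold change of -0.24 (edgeR adjusted p = 0.0328), and how reads over both were assigned was not given in the sources used here. Itga10, the chondrocyte collagen receptor subunit, did not pass, with a log2 difference of -0.31 (95% interval -0.68 to 0.05).

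Neither of the tested RGD-binding alpha subunits, Itga5 and Itgav, passed, and the third, Itga8, was below the filter on low counts. Itga5, the classical fibronectin receptor subunit, was at 131.8, 123.5, 127.3 and 116.6 CPM in EV and at 131.6, 126.6, 133.5 and 144.2 CPM in KO. The groups overlapped, and the log2 difference was 0.10 (SE 0.0512; edgeR adjusted p = 0.153). Itgav, which pairs with several beta subunits to bind vitronectin and fibronectin, was at 276.4, 299.0, 323.9 and 324.9 CPM in EV and at 275.9, 287.5, 271.4 and 280.8 CPM in KO. EV replicate 1 lay among the KO libraries and the other EV libraries lay above them. The log2 difference was -0.13 (SE 0.0507; edgeR adjusted p = 0.0584), just short of the threshold, and without EV replicate 1 Itgav was called lower. Itga7, the laminin receptor subunit of muscle, was measured at 0.374 ± 0.176 CPM in EV and 0.596 ± 0.0827 CPM in KO (SD, n = 4 each), too low for its log2 difference of 0.69 (95% interval -0.08 to 1.45) to be told from 0.

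Among the 5 beta subunits tested, Itgb3 alone passed (20%, against 26.0% of all genes tested). It encodes the partner of Itgav in a vitronectin and fibronectin receptor and was at 20.7, 20.8, 21.0 and 23.9 CPM in EV and at 24.3, 24.4, 26.5 and 26.5 CPM in KO. The highest EV library, replicate 4, came close to the lowest KO library, and the log2 change was 0.24 (SE 0.0724; edgeR adjusted p = 0.0205). This call was lost in 10 of 20 alternative analyses, among them leaving out EV replicate 1, 2 or 3, KO replicate 3 or 4, or KO replicates 2 and 3 together. Itgb1, the common partner of most collagen, laminin and fibronectin receptors, was at 1103, 1100, 1150 and 1137 CPM in EV and at 1111, 1131, 1133 and 1159 CPM in KO. The groups overlapped nearly completely, and the log2 difference was 0.01 with a 95% interval from -0.06 to 0.09 (edgeR adjusted p = 0.827). Its sign turned in the 4 analyses that scaled libraries by their totals, where Itgb1 was between -0.0364 and -0.0362 on the log2 scale. Itgb5, another partner of Itgav, was at 207.1 ± 5.29 CPM in EV and 199.2 ± 7.54 CPM in KO, a log2 difference of -0.06 (edgeR adjusted p = 0.379). Itgb4, the hemidesmosome subunit that pairs with Itga6, was at 0.690 ± 0.312 CPM in EV and 1.24 ± 0.568 CPM in KO and did not pass (edgeR adjusted p = 0.0913). Itgb8, which binds latent TGF-beta together with Itgav, was at 4.24 ± 1.04 CPM in EV and 5.06 ± 0.905 CPM in KO (edgeR adjusted p = 0.317).

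Levels of different integrin genes can be compared only per unit of length, here the length that the table gives for each gene. In EV, Itgb1 was highest at 294.2 CPM per kb, followed by Itga3 at 93.92, Itgb5 at 67.04, Itgav at 43.39 and Itga5 at 28.5 CPM per kb. These neighbours did not overlap between libraries. Next came Itga1 at 7.628 and Itga6 at 7.124 CPM per kb, whose EV libraries overlapped. In KO, Itga6 stood at 12.75 and Itga1 at 4.814 CPM per kb, with no overlap, so the order of this pair turned while the first 5 places kept their order. Summed over the subunits of each ligand class, which is a description made with these values known, the 4 collagen-binding genes went from 9.49 ± 1.14 to 5.83 ± 0.131 CPM per kb, the 3 laminin-binding genes from 101.1 ± 1.99 to 116.8 ± 1.49, and the 3 RGD-binding genes from 72.0 ± 2.53 to 70.2 ± 1.77 (EV then KO, SD, n = 4 each).

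**Figure D2:**
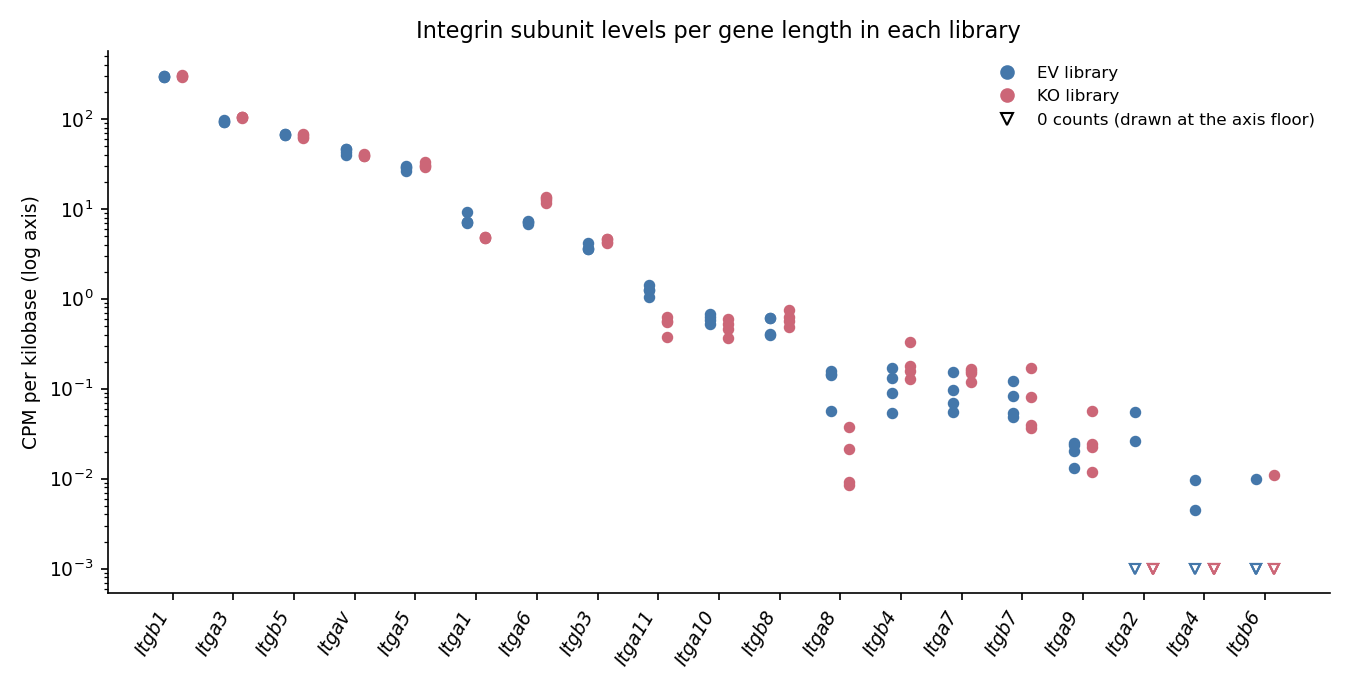
Level of each integrin subunit per unit of gene length (CPM per kb, log axis) in the 4 EV and 4 KO libraries, one point per library; open triangles stand for 0 counts. Itgb1 is highest at 294.2 in EV and 297.1 in KO, and Itga6 and Itga1 change places between the groups.

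In all, 8 of the 38 genes were below the filter on low counts. Itga8, the partner of Itgb1 in binding nephronectin, had 6, 19, 20 and 18 counts in EV and 1, 1, 5 and 3 counts in KO, or 63 against 10 in all. Every EV library had more counts than any KO library, and the ratio of the rates was 6.5 (95% exact interval 3.31 to 14.2, for counting error only). Tested with no filter, edgeR's quasi-likelihood test put Itga8 at a log2 difference of -2.64 (adjusted p = 0.000102). It also entered the test and was called lower without EV replicate 1, without any 1 of the KO libraries, and without KO replicates 2 and 3. In those fits Itga8 passed the filter through its EV libraries alone, the group where it is higher. These calls are therefore no separate support. The other integrins below the filter were barely detected. Itga2 had 2, 0, 5 and 0 counts in EV and none in KO, and Itga4 had 0, 1, 0 and 2 counts in EV and none in KO. Itga9 had between 2 and 8 counts per library, Itgb7 between 2 and 11, and Itgb6 at most 1. Ilk, the integrin-linked pseudokinase that binds parvin and kindlin, had at most 4 counts in any library. Of its 2744 exon bases in the GENCODE M21 annotation, 2461 (89.7%) lie in exons of Rrp8 and Taf10 on the opposite strand. How reads over such exons were assigned was not given in the sources used here, and the value for Ilk cannot be read as absence of expression.

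The core of focal adhesions changed by small amounts: of 13 listed genes 12 were tested, 4 rose, 1 fell and 7 did not pass. Of the 12, 41.67% were called, against 26.0% of all genes tested. Tns3, a tensin that joins the tail of beta integrins to actin, was at 684.3, 664.6, 669.3 and 678.5 CPM in EV and at 782.4, 843.1, 768.6 and 803.5 CPM in KO. The groups were clearly apart, with a log2 change of 0.25 (SE 0.0426; edgeR adjusted p = 0.000246). Fermt2 (kindlin-2), which activates integrins by binding the beta tail beside talin, moved the other way and was at 221.8, 212.8, 221.7 and 234.3 CPM in EV and at 193.5, 177.4, 191.0 and 190.8 CPM in KO. All KO libraries were below all EV libraries, with KO replicate 2 lowest, and the log2 change was -0.24 (SE 0.0455; edgeR adjusted p = 0.000546). Src, the tyrosine kinase that signals from adhesions with FAK, was at 99.7, 91.8, 92.1 and 88.0 CPM in EV and at 112.4, 117.5, 113.0 and 104.4 CPM in KO. The groups did not overlap, and the log2 change was 0.27 (SE 0.0514; edgeR adjusted p = 0.000672). Vcl, vinculin, which reinforces the talin to actin link under tension, was at 652.6, 633.6, 672.9 and 657.6 CPM in EV and at 755.8, 809.3, 715.5 and 768.5 CPM in KO. The lowest KO library was above the highest EV library, with a log2 change of 0.22 (SE 0.0453; edgeR adjusted p = 0.0012). Of the exon bases of Vcl, 25.5% lie in exons of Ap3m1 on the opposite strand, and Ap3m1 did not pass the test, at 101.8 CPM in EV and 93.9 CPM in KO (edgeR adjusted p = 0.131).

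Promoter sequences are shown for Vcl and Fermt2 because both hold a CArG box, the site of serum response factor, while 1 gene rose and the other fell. The 250 bases before each RefSeq transcription start (GRCm38.p6) were searched on both strands, and the first 150 bases of that window are printed 5′ to 3′ along the gene's strand, with matches to the CArG box in capitals, as well as to the TEAD motif CATTCC and the AP-1 motif TGANTCA where they occur. The box starts 227 bases before the start in Vcl and 204 bases before it in Fermt2.
Vcl, chr14:20929148-20929297, plus strand: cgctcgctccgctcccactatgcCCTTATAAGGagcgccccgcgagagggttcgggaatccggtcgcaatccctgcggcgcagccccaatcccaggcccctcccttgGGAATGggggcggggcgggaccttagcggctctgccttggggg
Fermt2, chr14:45530166-45530315, minus strand: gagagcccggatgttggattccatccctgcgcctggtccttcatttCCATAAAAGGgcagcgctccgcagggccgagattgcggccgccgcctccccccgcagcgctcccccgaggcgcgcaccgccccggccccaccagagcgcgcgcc
A CArG box was found in 3 of 33 promoter windows of these genes and in 1.47% of all 32851 windows (1.18% of those of tested genes), the third being a window of Itgb6, which was barely detected. No window was at hand for Fn1, Itga6, Itgb3, Itga7, Itgb4, Tln2, Pxn, Ptk2 and Parva, so these were not searched. Itga3, Itgb6, Ilk and Bcar1 had more than 1 window each. The TEAD motif was in 6 of the 33 windows and in 12.6% of all windows, the AP-1 motif in 2 and in 6.75%, and the GC box GGGCGG in 18 and in 32.7% (58.1% of those of tested genes). Such matches are letters in a window and say nothing of whether the factor was bound.

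Talin also moved, but not firmly. Tln1, which opens integrins and carries the first link to actin, was at 525.5, 493.1, 538.8 and 549.8 CPM in EV and at 567.4, 589.0, 565.1 and 601.0 CPM in KO. The groups were close without overlapping, and the log2 change was 0.14 (SE 0.0454; edgeR adjusted p = 0.0282). The call was lost in 9 of 20 alternative analyses, among them leaving out EV replicate 1 or 2, KO replicate 2 or 4, or KO replicates 2 and 3 together. The 7 tested core genes that did not pass had log2 differences between -0.09 for Zyx and 0.09 for Bcar1. They were Tln2, the second talin, Pxn, the scaffold paxillin, Ptk2, the kinase FAK, Zyx, the tension-sensing zyxin, Parva, the actin-binding partner of Ilk, Tns1, another tensin, and Bcar1, the Src substrate p130Cas. Bcar1 alone of these passed when 1 library was left out (KO replicate 2; edgeR adjusted p = 0.0432). The 95% interval of Ptk2 ran from -0.18 to 0.01 on the log2 scale, and that of Pxn from -0.02 to 0.15. Over all roles, 12 of the 16 tested genes that did not pass had a 95% interval within 1.25-fold of no change.

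Of the 3 actin crosslinkers, 2 rose by small factors (66.67% called, against 26.0% of all genes tested). Actn1, the alpha-actinin that bundles actin at adhesions, was at 388.4, 351.2, 367.1 and 374.7 CPM in EV and at 423.2, 434.2, 399.3 and 432.3 CPM in KO. The groups did not overlap, and the log2 change was 0.19 (SE 0.0454; edgeR adjusted p = 0.00432). This call was lost in 1 of 20 alternatives, log2 FPKM with no filter (limma adjusted p = 0.0545). Flna, filamin A, which crosslinks actin and binds beta integrin tails, was at 1653, 1564, 1669 and 1568 CPM in EV and at 1738, 1881, 1718 and 1887 CPM in KO. Its KO libraries were above its EV libraries, with a log2 change of 0.16 (SE 0.0449; edgeR adjusted p = 0.0116), and the call was lost in 5 of 20 alternatives: with library totals, in the 3 analyses of FPKM and without KO replicate 4 (adjusted p from 0.0523 to 0.142). Actn4, the second non-muscle alpha-actinin, was at 499.3 ± 13.1 CPM in EV and 530.1 ± 4.02 CPM in KO. Its groups did not overlap either, yet the log2 difference of 0.09 missed the threshold (edgeR adjusted p = 0.131).

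**Figure D3:**
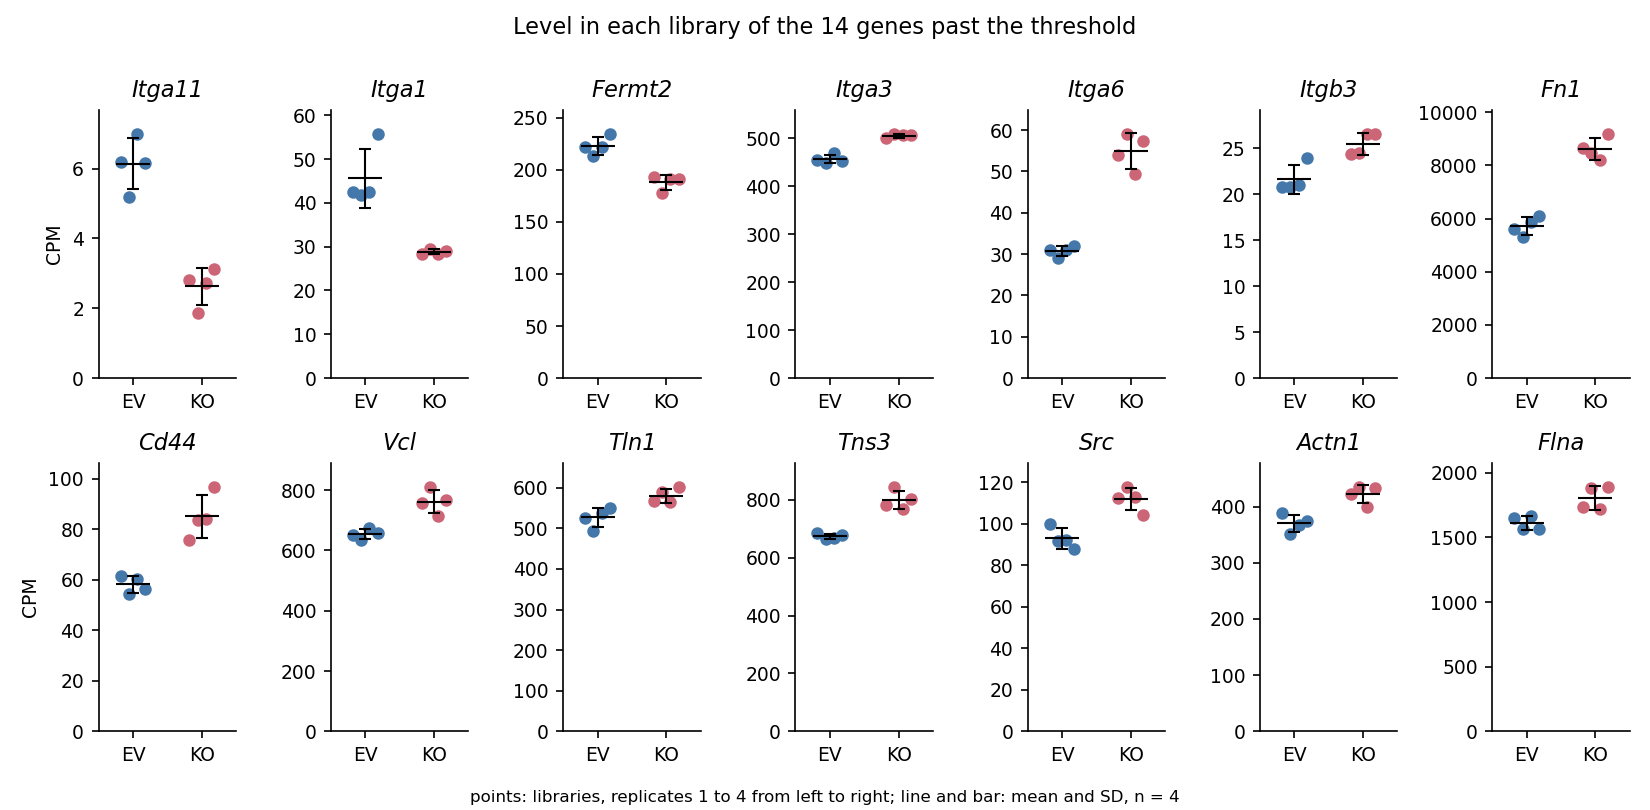
Level in CPM (linear axes from 0) of the 14 called genes in each EV and KO library, one point per library, with the mean and SD (n = 4) as a line and bar. In every panel the 4 KO points lie wholly above or wholly below the 4 EV points; Fn1 lies between 5307 and 6095 CPM in EV and between 8217 and 9174 CPM in KO.

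Ratios of related genes within a library do not depend on how libraries are scaled. They are given for 5 pairs as a description, with no test, since the pairs were chosen with the values known. Per unit length, Tns1 over Tns3 was 0.504 in EV and 0.412 in KO (geometric means of 4 libraries). Itgb5 over Itgb3 was 17.99 in EV and 14.67 in KO. The KO libraries lay below the EV libraries in both pairs. Tln1 over Tln2 was 15.71 in EV and 18.11 in KO, and Actn1 over Actn4 was 0.769 in EV and 0.825 in KO. In these pairs of paralogs the KO libraries lay above the EV libraries. Itgav over Itga5 was 1.52 in EV and 1.29 in KO, with overlapping groups.

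The wider adhesion pathway was read from lists of other genes. Other integrin ligands had 18 of 22 genes tested, of which 8 rose and 3 fell (61.11% called, against 26.0% of all genes tested). Their median log2 fold change was 0.13. Col1a1 rose by 0.52 (edgeR adjusted p = 3.02e-08) and Col1a2 by 0.32 (edgeR adjusted p = 3.90e-06) on the log2 scale, the chains of type I collagen, while Icam1, a ligand of leukocyte integrins, fell by 1.16 (edgeR adjusted p = 1.07e-05). Spp1, the RGD protein osteopontin, rose by 0.71 (edgeR adjusted p = 3.35e-05). Without KO replicates 2 and 3, 6 of these ligands rose. With libraries scaled by their totals 5 rose, and 3 or 4 in the analyses of log2 FPKM. Other adaptors and regulators of integrins had 48 of 57 genes tested, with 5 higher and 8 lower (27.08% called, close to the 26.0% of all genes tested) and a median of 0.04. Kank1, an adaptor at the rim of adhesions, was at -0.32 on the log2 scale (edgeR adjusted p = 1.64e-05). Lasp1 was at 0.36 and Ptk2b, the FAK-related kinase Pyk2, at -0.27. The count of lower adaptors was 4 without KO replicate 1, or without KO replicates 2 and 3. It was 5 when EV replicate 3, KO replicate 3 or KO replicate 4 was left out.

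Of 8 integrin subunits of blood cells and other types, 2 were tested, and both rose (100% called, against 26.0% of all genes tested). Itgb2, the leukocyte beta subunit, was at 9.23 CPM in EV and 12.7 CPM in KO (log2 fold change 0.45, edgeR adjusted p = 0.00234). Itga2b, the platelet alpha subunit, was at 3.82 CPM in EV and 5.64 CPM in KO (0.55, edgeR adjusted p = 0.0141). Neither was called without KO replicates 2 and 3, and without KO replicate 2 alone only Itgb2 was. The 10 leukocyte markers, a list that holds Itgb2 itself, summed to 15.7 to 17.3 CPM in EV and 21.07 to 24.96 CPM in KO. Of the 3 tested, Itgb2 and Cd68 rose, Cd68 with a log2 fold change of 0.73 (edgeR adjusted p = 0.000233). Csf1r, at 0.52, did not pass (edgeR adjusted p = 0.0952). On average 4 of the 10 were higher in KO. The defining marker Ptprc was at 0.012 CPM in EV and 0.013 CPM in KO, and Emr1 was at 0. The 6 platelet markers, Itga2b included, summed to 3.34 to 5.07 CPM in EV and 5.43 to 7.30 CPM in KO, with Gp9 at 0. The part of such cells in these values was not tested.

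Across 20 alternative analyses, which changed the tool, scaling, filter or unit or left out libraries, the 14 called genes kept their direction in all 20. Of them, 9 stayed past the threshold in all 20: Itga1, Itga6, Itga11, Fn1, Cd44, Vcl, Fermt2, Tns3 and Src. Without KO replicate 1, the library with conflicting labels, all 14 passed. Itga8, which then passed the filter through its EV libraries alone, was called as well.

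**Figure D4:**
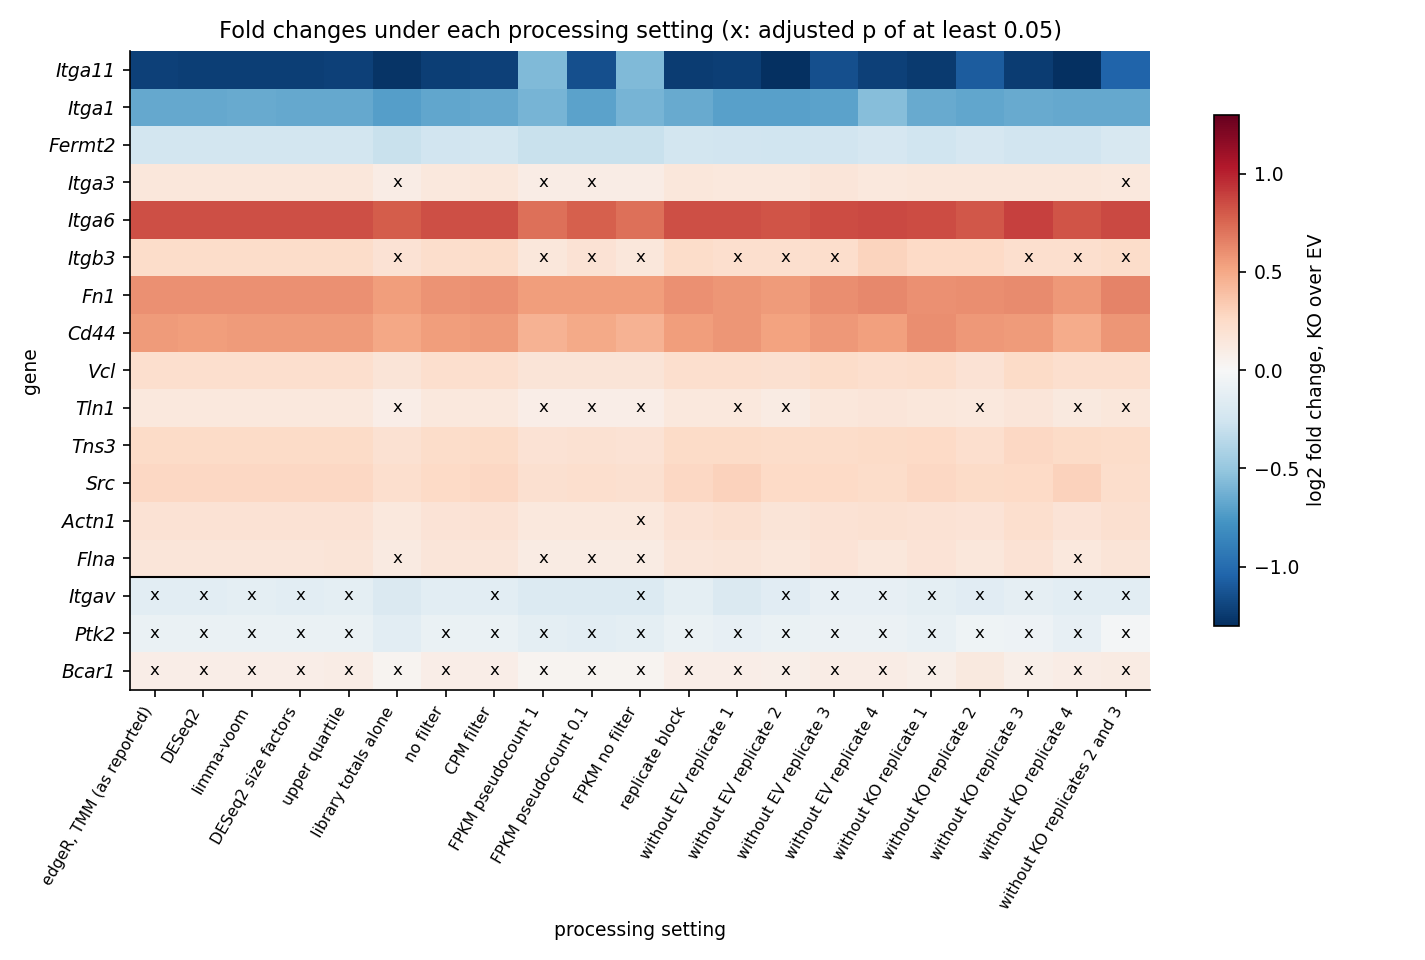
Heat map of the log2 fold change (colour, KO over EV) of the 14 called genes and of Itgav, Ptk2 and Bcar1 (rows) in the reported analysis and in 20 alternatives (columns); a cross marks an adjusted p of at least 0.05. The 14 called genes keep their colour in every column, and among them crosses gather on Itgb3 and Tln1. Itgav, Ptk2 and Bcar1, which did not pass in the reported analysis, hold crosses in most columns.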

How the data were processed

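Whole genes were counted by RNA sequencing in 8 libraries of a mouse epicardial cell line. The authors deposited raw read counts and FPKM values per gene for genome build mm10, and the submitters' processing notes name DESeq 1.6.3. Which aligner and counter made them, and with which strand option, was not given in the sources used here. All deposited FPKM equal count over gene length and library total for 100% of values (relative tolerance 1e-06). Genes were kept by edgeR's filterByExpr (minimum count 10, total 15), scaled by TMM, and tested two-sided with edgeR's quasi-likelihood test (edgeR 4.0.16, R 4.3.3) with group as the only term, and p-values were adjusted by Benjamini-Hochberg over 12801 genes at 0.05. The biological coefficient of variation was 6.41%. The method was tested on simulated data. Alternatives used DESeq2 1.42.0, limma 3.58.1 (voom, or log2(FPKM + 1) or log2(FPKM + 0.1)), other scalings and filters, a replicate block, and libraries left out. Intervals of 95%, other than the exact one of Itga8, come from the standard errors with a normal quantile. They are therefore somewhat narrower than the test itself implies. For Itga5 the interval ran from 0.00276 to 0.2034, while its raw p in edgeR's quasi-likelihood test was 0.0586.

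Libraries of a group differed beyond counting noise (chi-square over degrees of freedom 4.01 to 13.2), so none was merged. Replicate numbers were not taken as pairs. Every listed gene is accounted for. Values in every library are given for Fn1, Vtn, Cd44, Itga5, Itgav, Itgb1 and for up to 5 genes per role past the threshold with the smallest adjusted p, and from other lists up to 4 genes with the smallest adjusted p, except that 1 such gene and 1 list are not reported here. The genes and lists were chosen with earlier results of these data known.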

Additional observations from a re-analysis of the deposited data

Results flagged for a closer look

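In 60 groups of 4 libraries (30 tested genes in EV and in KO), 4 groups had 1 library whose gap to its nearest neighbour, divided by the range of the group, was above Dixon's 95% critical value. Chance alone marks about 1 group in 20. Itga1 was at 55.7 CPM in EV replicate 4 against 41.9 to 42.5 CPM in the other EV libraries. Itgb3 was at 23.9 CPM in the same library against 20.7 to 21.0 CPM in the others. Without EV replicate 4 the log2 fold change of Itga1 was -0.55 and that of Itgb3 was 0.29. Fermt2 was at 177.4 CPM in KO replicate 2 against 190.8 to 193.5 CPM in the other KO libraries. Actn4 was at 536.1 CPM in KO replicate 2 against 527.7 to 528.8 CPM in the others.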

How the results depend on the processing

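All 14 called genes kept their direction in 20 alternatives, and 9 of them also their call. Against 1613 genes higher in KO, 1039 were called with libraries scaled by their totals, 896 and 897 with log2 FPKM at a pseudocount of 1 and 0.1, 766 with log2 FPKM and no filter, 880 without KO replicates 2 and 3, and 1239 to 1584 with 1 library left out. Against 1711 genes lower, 2414 were called with library totals, 1094 without KO replicates 2 and 3 and 1382 to 1775 with 1 library left out. Scaling by totals shifted the median of all genes by -0.0511 on the log2 scale. Of the adhesion genes, 7 in place of 11 were higher with library totals and in the 3 analyses of FPKM, 8 without KO replicates 2 and 3, and 8 to 11 with 1 library left out. In place of 3, 5 were lower with library totals (Itgav and Ptk2 added), with no filter (Itga8 and Itgav added) and without EV replicate 1, and 3 to 5 with 1 library left out. Itgb1 changed sign to -0.0364, -0.0362, -0.0363 and -0.0362 and Parva to -0.0236, -0.0235, -0.0237 and -0.0235 with library totals, FPKM at pseudocounts 1 and 0.1, and FPKM without a filter. The cause of these changes was not tested.

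Same-numbered libraries of EV and KO correlated between -0.0338 and 0.124, not all above 0.1, and the labels name nothing that they share, so the numbers were not read as pairs. In 3 of the 4 same-numbered pairs each library correlated best with the other, at 0.124, 0.0626 and 0.0907 for numbers 1, 3 and 4. These low correlations are a hint of pairing from the data, not from the design. With a replicate block 1879 genes were higher, and 15 adhesion genes were called, Itgav (adjusted p = 0.0306) being added. Itga2, Itga4, Itga9, Itgb6, Itgb7 and Vtn had at most 11 counts in any library, too few to be tested at this depth.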
